A study of Mus musculus with 12 samples.

Results

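The genes described are 42 chemokines, cytokines and receptors for them, chosen as a list and matched by symbol to the Ensembl identifiers of 2 tables of raw counts per gene. All 42 were found among the 38293 identifiers that each table holds. The list has 14 CC chemokines, 9 CXC and CX3C chemokines, 4 genes of the interleukin-1 family and tumour necrosis factor, 2 IL-6 family cytokines, 4 other cytokines, 7 cytokine receptors and 2 chemokine receptors. Which of the genes are listed was decided with earlier results of these data known.

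RNA was sequenced from mouse hearts, with 3 mice in each of 4 groups. WT sham and WT IR hearts came from wild-type C57Bl/6J mice after a sham operation or 14 days after ischaemia-reperfusion (IR), in which the left anterior descending coronary artery was tied for 1 h and then released. Zeb2 cTg IR and Zeb2 WT IR hearts, also labelled C57Bl/6J, were both collected 14 days post-IR. The Zeb2 cTg mice carried a Zeb2 transgene in the Rosa26 locus behind a LoxStopLox cassette together with a Cre recombinase under the Myh6 promoter, which directs it to cardiomyocytes, whereas the Zeb2 WT mice were their wild-type littermates. Both IR groups of the second table shared the injury, and that table has no sham hearts. The methods give an age of 8 to 9 weeks. They name male mice in one place and both sexes in another, and the tissue is given as the remote zone in the methods, the left ventricle in the sample labels and the infarct area with the border zone in the design text.

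Chemokines are small secreted proteins that guide leukocytes along gradients through G protein-coupled receptors, and atypical receptors such as ACKR3 take them up without the usual signalling. Interleukins and related cytokines act through receptor complexes. IL-1 family ligands signal through receptors with MYD88 and NF-κB, and the IL-6 family shares the receptor subunit gp130, which signals through JAK kinases and STAT3. In the injured heart these molecules are known for the recruitment of neutrophils, monocytes and lymphocytes, and for exchanges between cardiomyocytes, fibroblasts, endothelial cells and macrophages during repair.

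The libraries held 20215781 to 36816818 counts, of which 60.57 to 73.46% fell on mitochondrial genes. Levels are given as CPM, the count divided by the TMM-scaled library total of its table and multiplied by 1000000, so that 1 CPM stood for 17.18 to 37.8 counts, and a gene below 1 CPM rested on few reads. The 12 cardiomyocyte markers were high in every library (46890 to 70560 CPM in sum), as in heart muscle. Zeb2 itself was at 54.7, 57.8 and 67.0 CPM in the Zeb2 WT IR libraries and at 55.5, 56.9 and 58.7 CPM in libraries labelled Zeb2 cTg IR. Those groups overlapped (log2 fold change -0.07 ± 0.12 SE, adjusted p = 0.75), so the transgene was not visible in the count of its gene, and every direction given for the libraries labelled Zeb2 cTg IR rests on their labels. In the first table Zeb2 was at 49.0, 49.9 and 55.9 CPM in WT sham and 59.1, 80.8 and 74.6 CPM in WT IR (log2 fold change 0.47 ± 0.12, adjusted p = 0.0219).

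Per kilobase of exon, the most abundant of the 42 genes in WT sham hearts was Il6st, which encodes gp130, at a mean of 9.68 CPM per kb. It was followed by Cxcl12, the stromal chemokine that binds CXCR4 and ACKR3, at 7.70 CPM per kb. Il15 (5.61), Ackr3 (5.31), Csf1 (4.25) and Ccl6 (2.89 CPM per kb) came next. In Zeb2 WT IR hearts Il6st (11.01) and Cxcl12 (8.59 CPM per kb) again led, with Ackr3 (3.91) and Csf1 (3.38 CPM per kb) behind them. The leading genes in both orders were thus a shared receptor chain, the CXCL12 axis and the macrophage growth factor Csf1.

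**Figure D1:**
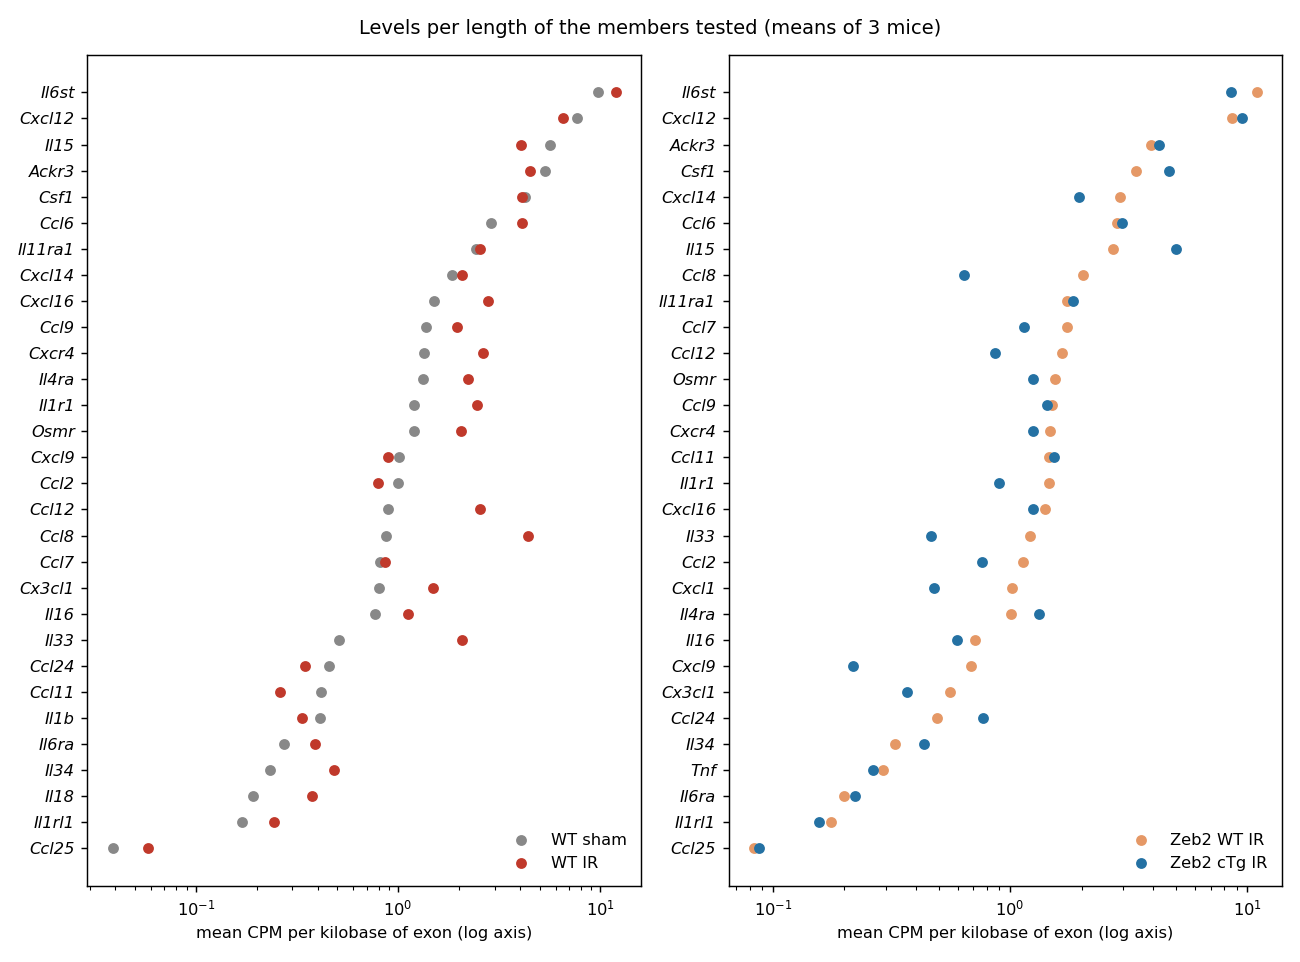
Mean level per kilobase of exon (CPM per kb, log axis; mean of 3 mice) of the members tested in each table, ordered by the reference group. Il6st and Cxcl12 lead in WT sham and in Zeb2 WT IR, and Ccl25 is lowest in both.

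Several of the genes were barely expressed. The 7 chemokines Ccl3, Ccl4, Ccl5, Ccl17, Ccl19, Cxcl2 and Cxcl13 had 10 counts or fewer in each of the 12 libraries. Too few counts for a test were found for 12 of the 42 genes in each table, and 28 were tested in both. A gene that reaches the count filter only through the group in which it is high has to differ between groups, so the counts over tested genes below describe those genes and are no evidence about the list.

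After IR, 9 of the 30 tested members were higher and 0 lower in WT IR than in WT sham by edgeR's quasi-likelihood test at a Benjamini-Hochberg adjusted p under 0.05 over the 13756 genes of the table. Among all genes tested, 11.0% were higher and 9.74% lower. At an unadjusted p under 0.05, 16 of the 30 were higher and 2 (Il15 and Ackr3) lower. The share of all genes at that unadjusted p was not computed, so these 2 counts are not a result about the list. DESeq2 placed 1 gene, Il15, below the threshold in the lower direction and limma-voom 0. The genes that rose were Ccl8, Cx3cl1, Cxcl16, Il33, Il16, Il1r1, Il4ra, Osmr and Cxcr4, so that they included ligands of several classes and 4 receptors. In 13 tested members every WT IR library lay above every WT sham library, and in 0 every one lay below, where the shares among all genes tested were 20.5% and 19.3%. The median log2 fold change was 0.50 over the 30 tested members and 0.01 over all genes tested. These calls depended on single libraries, as did those over all genes, which were 1519 higher and 1340 lower with every library. Without WT sham replicate 2 only Cxcr4 stayed past the threshold, beside 226 higher and 195 lower among all genes. Without WT IR replicate 1 there were 15 members higher and 2 lower, beside 2543 higher and 2437 lower among all genes.

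In libraries labelled Zeb2 cTg IR, 3 of 30 tested members were lower and 0 higher than in Zeb2 WT IR. They were Cxcl9, Il33 and Il1r1. Among the 13018 genes tested, 1.51% were lower and 2.14% higher. At an unadjusted p under 0.05, 7 members were lower and 2 (Ccl24 and Csf1) higher, and neither DESeq2 nor limma-voom called any of them higher (0 genes each). Here too the share of all genes at that unadjusted p was not computed. In 5 tested members (Ccl8, Cxcl9, Il33, Il1r1 and Il6st) every library labelled Zeb2 cTg IR lay below every Zeb2 WT IR library, and in 1 (Ccl24) every one lay above, where 12.8% and 13.4% of all genes tested did so. The median log2 fold change was -0.18 over the 30 tested members and 0.01 over all genes tested. Without Zeb2 WT IR replicate 3, or without Zeb2 cTg IR replicate 3, 0 members passed (7 and 9 at an unadjusted p under 0.05). Among all genes these fits called 50 higher and 48 lower, and 71 higher and 46 lower, against 278 and 196 with every library. Without Zeb2 cTg IR replicate 2, 5 members passed (Ccl8, Cxcl9, Il1r1, Il33 and Osmr, all lower), beside 1594 higher and 825 lower among all genes.

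**Figure D2:**
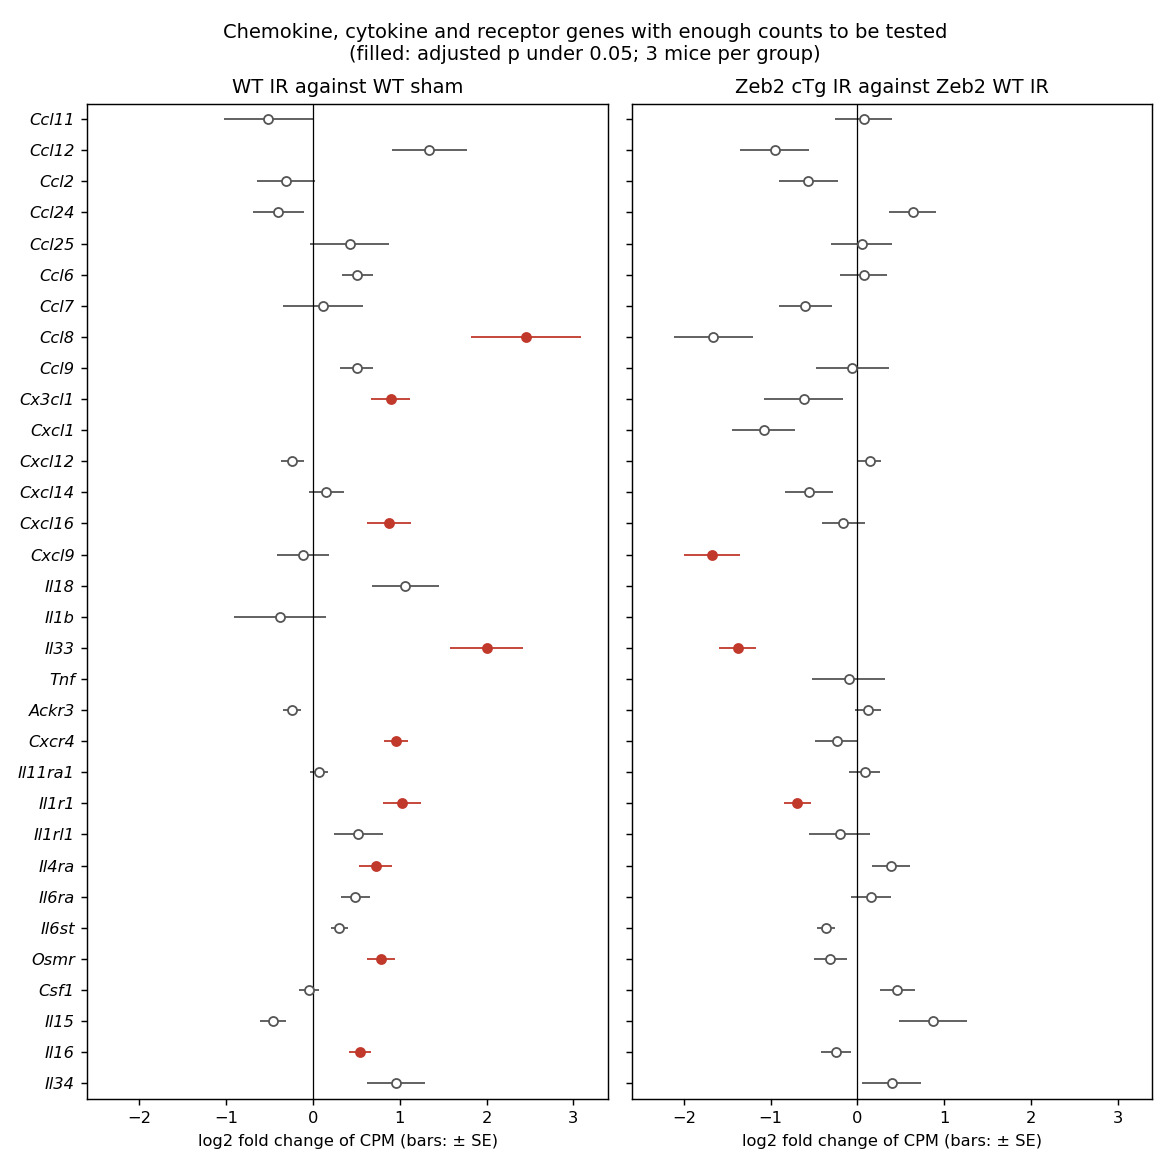
Log2 fold change of CPM (points, bars ± SE) of the members with enough counts to be tested, for WT IR against WT sham (left) and Zeb2 cTg IR against Zeb2 WT IR (right), ordered by role. Filled red points have an adjusted p under 0.05, which are 9 genes to the right of zero on the left and 3 genes to the left of zero on the right.

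The CC chemokines attract chiefly monocytes, macrophages, eosinophils and lymphocytes. Ccl8, a monocyte chemoattractant of chromosome 11 (chr11:82115185-82116799, GRCm38), was the only one of the 9 tested CC chemokines to pass after IR. It was at 0.454, 0.184 and 0.698 CPM in WT sham, from 12, 6 and 12 counts, and at 0.625, 2.86 and 3.24 CPM in WT IR, from 20, 108 and 87 counts. The WT IR replicates 2 and 3 were high and replicate 1 lay within the WT sham range, so the groups overlapped. The log2 fold change was 2.46 ± 0.64 (adjusted p = 0.0255). Without any one of the 3 WT sham replicates or WT IR replicate 2 the adjusted p was 0.0563 to 0.132. Among the Zeb2 hearts Ccl8 was at 0.770, 0.809 and 1.53 CPM in Zeb2 WT IR and at 0.168, 0.534 and 0.281 CPM in libraries labelled Zeb2 cTg IR. These groups did not overlap, but with a log2 fold change of -1.66 ± 0.46 the adjusted p was 0.0753.

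Ccl8 is the last gene of a run of monocyte chemoattractant and eotaxin genes on the plus strand of chromosome 11 that begins with Ccl2 (chr11:82035571-82037453) and goes on through Ccl7, Ccl11 and Ccl12. These neighbours had unlike estimates after IR. Ccl12, which acts on CCR2, had a log2 fold change of 1.34 ± 0.44 (adjusted p = 0.0555; 0.378, 0.889 and 0.175 CPM in WT sham, 0.875, 1.53 and 1.68 CPM in WT IR). Ccl2, also a ligand of CCR2, was at 0.832, 1.16 and 1.40 CPM in WT sham and 0.5, 0.952 and 1.27 CPM in WT IR, with a log2 fold change of -0.31 ± 0.34 (adjusted p = 0.546). Ccl7 (0.12 ± 0.46) and the eotaxin Ccl11 (-0.52 ± 0.51) were likewise short of the threshold. In libraries labelled Zeb2 cTg IR the log2 fold changes were -0.57 for Ccl2, -0.60 for Ccl7, 0.07 for Ccl11 and -0.95 for Ccl12, with adjusted p of 0.331, 0.256, 0.915 and 0.181. No gene of this run was called in that comparison.

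A second run on chromosome 11 holds Ccl5, Ccl9, Ccl6, Ccl3 and Ccl4 (chr11:83525778-83664683). Ccl6 and Ccl9, myeloid chemokines that act on CCR1, were its 2 expressed members. After IR, Ccl6 had a log2 fold change of 0.51 ± 0.17 (adjusted p = 0.0655) and Ccl9 one of 0.50 ± 0.19 (adjusted p = 0.0855). Ccl9 did not overlap between the groups (4.09, 4.39 and 4.02 against 5.22, 4.79 and 7.91 CPM). In libraries labelled Zeb2 cTg IR the estimates were 0.07 ± 0.27 for Ccl6 and -0.06 ± 0.42 for Ccl9. Ccl3, Ccl4 and Ccl5, attractants of monocytes and T cells, had too few counts for a test. Ccl3 had 2, 2 and 2 counts in WT sham and 3, 8 and 7 in WT IR, then 1, 1 and 2 in Zeb2 WT IR and 4, 0 and 0 in libraries labelled Zeb2 cTg IR. Ccl4 had 0, 1 and 2 against 5, 4 and 8 counts in the first table and 1, 0 and 5 against 1, 1 and 1 in the second. Ccl5 had 1, 2 and 1 against 0, 6 and 6 counts and then 2, 1 and 1 against 0, 1 and 0. These numbers are too small to compare groups.

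Of the remaining CC chemokines, the eotaxin Ccl24 had a log2 fold change of -0.40 ± 0.29 after IR. In the Zeb2 table it was at 0.660, 0.647 and 0.5997 CPM in Zeb2 WT IR and 1.01, 1.11 and 0.870 CPM in libraries labelled Zeb2 cTg IR, which lay above without overlap, although with a log2 fold change of 0.64 ± 0.27 the adjusted p was 0.193. Ccl25, the ligand of CCR9, had estimates of 0.43 ± 0.46 and 0.05 ± 0.35, and it overlaps Elavl1 on the other strand. Ccl17, a ligand of CCR4, had 6, 0 and 1 counts in WT sham, 1 in each WT IR library and 0 in the 6 libraries of the second table. Ccl19, a ligand of CCR7, had 0 counts in WT sham, 0, 2 and 2 in WT IR, 1, 0 and 2 in Zeb2 WT IR and 0, 0 and 1 in libraries labelled Zeb2 cTg IR. Near-identical copies of Ccl19 stood at 0 in all libraries, and reads that fit several copies may have been lost from it.

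Among the CXC and CX3C chemokines, 2 of the 5 tested genes rose after IR and both are made as membrane-bound proteins with a chemokine head. Cx3cl1 (chr8:94772009-94782427), fractalkine, the ligand of CX3CR1 on monocytes and macrophages, was at 3.18, 2.76 and 3.55 CPM in WT sham and at 4.50, 4.999 and 8.09 CPM in WT IR. The groups did not overlap, and the log2 fold change was 0.90 ± 0.22 (adjusted p = 0.0231). Cxcl16 (chr11:70453983-70459984), the ligand of CXCR6, was at 4.73, 4.20 and 4.77 CPM in WT sham and at 5.47, 7.62 and 12.1 CPM in WT IR. WT IR replicate 3 was the highest for both genes. The log2 fold change of Cxcl16 was 0.87 ± 0.25 (adjusted p = 0.037). Leaving out 1 of 4 libraries ended the call of Cx3cl1 (WT sham replicates 1 to 3 or WT IR replicate 2; adjusted p 0.0512 to 0.117) and 1 of 5 that of Cxcl16 (the same or WT IR replicate 3; 0.0501 to 0.15). Cxcl16 overlaps Zmynd15 on the other strand, and whether reads were counted by strand is not given in the sources used here. Neither gene passed in the second table (Cx3cl1 -0.62 ± 0.46, adjusted p = 0.423; Cxcl16 -0.16 ± 0.24, adjusted p = 0.712).

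Cxcl9 (chr5:92321347-92328079), an interferon-γ-induced ligand of CXCR3 on T cells, was lower in libraries labelled Zeb2 cTg IR. It was at 1.98, 2.02 and 2.17 CPM in Zeb2 WT IR and at 0.880, 0.725 and 0.365 CPM in libraries labelled Zeb2 cTg IR. These values rested on 54, 50 and 65 counts against 21, 19 and 13. The groups lay well apart, with tight Zeb2 WT IR values. The level was 0.312 times that of Zeb2 WT IR (log2 fold change -1.68 ± 0.32, adjusted p = 0.0257). The adjusted p was 0.0539 to 0.116 without any one of the 3 Zeb2 WT IR replicates or Zeb2 cTg IR replicate 3. IR itself left no called difference in the first table, where Cxcl9 was at 2.23, 2.76 and 4.13 CPM in WT sham and 2.50, 3.84 and 1.71 CPM in WT IR (-0.12 ± 0.30, adjusted p = 0.812).

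Cxcl10, which neighbours Cxcl9 on the same strand of chromosome 5 and binds the same receptor, was sparse. It had 2, 5 and 3 counts in WT sham and 6, 22 and 22 in WT IR, so the groups did not overlap, and 2, 1 and 3 counts in Zeb2 WT IR against 4, 1 and 2 in libraries labelled Zeb2 cTg IR. With all libraries it did not reach the count filter in either table. Without a filter the adjusted p was 0.00913 after IR and 0.941 in the second table. The unfiltered fit after IR also gave a smaller adjusted p for called members (Cxcr4 1.55e-05 against 0.004475), so its values cannot be set beside those of the main fit. Cxcl10 did reach the filter in 4 fits without 1 library, but only through the WT IR libraries in which it was high. The adjusted p of those fits is therefore no evidence of a difference. Cxcl10 overlaps Art3 on the other strand. Cxcl1, a neutrophil attractant that acts on CXCR2, had 8, 8 and 6 counts in WT sham and 13, 43 and 8 in WT IR. In the second table it reached the filter with 2.60, 2.14 and 1.00 CPM in Zeb2 WT IR and 1.01, 0.763 and 0.927 CPM in libraries labelled Zeb2 cTg IR, which overlapped by 1 library (-1.08 ± 0.36, adjusted p = 0.116). Its neighbour Cxcl2 had 1, 1 and 1 counts in WT sham, 1, 6 and 0 in WT IR, 1, 0 and 1 in Zeb2 WT IR and 0, 1 and 6 in libraries labelled Zeb2 cTg IR. Cxcl13, the B cell attractant, had 0 counts in WT sham, 0, 5 and 3 in WT IR, 1, 0 and 0 in Zeb2 WT IR and 0, 1 and 0 in libraries labelled Zeb2 cTg IR.

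The abundant ligands Cxcl12 and Cxcl14 did not pass in either table. Cxcl12 was at 61.9, 61.4 and 65.6 CPM in WT sham and 62.1, 56.8 and 41.0 CPM in WT IR (-0.24 ± 0.13, adjusted p = 0.232), and its estimate in the second table was 0.14 ± 0.13. The WT IR replicate 3 alone lay well below the others. Cxcl14 had log2 fold changes of 0.15 ± 0.20 and -0.56 ± 0.27 (adjusted p = 0.62 and 0.243).

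The bases before the starts of some of these genes are shown because Cxcl9, Cxcl1 and Cxcl10 are inducible chemokines of 1 chromosome with unlike values. Each is the 250 bases before a RefSeq start on GRCm38.p6, written along the gene's strand, with capitals for the motifs named after it.
Cxcl9 (chr5:92328080-92328329, minus strand): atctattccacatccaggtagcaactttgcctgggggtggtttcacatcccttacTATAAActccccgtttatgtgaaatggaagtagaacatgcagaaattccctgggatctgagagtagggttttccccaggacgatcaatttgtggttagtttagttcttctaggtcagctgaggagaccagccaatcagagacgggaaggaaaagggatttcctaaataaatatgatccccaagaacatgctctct
Cxcl10 (chr5:92348890-92349139, minus strand): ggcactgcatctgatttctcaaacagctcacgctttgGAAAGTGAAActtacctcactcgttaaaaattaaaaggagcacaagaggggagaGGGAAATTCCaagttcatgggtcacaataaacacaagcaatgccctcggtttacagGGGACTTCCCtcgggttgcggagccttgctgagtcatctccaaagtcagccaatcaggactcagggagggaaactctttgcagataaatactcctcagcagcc
Cxcl1 (chr5:90890995-90891244, plus strand): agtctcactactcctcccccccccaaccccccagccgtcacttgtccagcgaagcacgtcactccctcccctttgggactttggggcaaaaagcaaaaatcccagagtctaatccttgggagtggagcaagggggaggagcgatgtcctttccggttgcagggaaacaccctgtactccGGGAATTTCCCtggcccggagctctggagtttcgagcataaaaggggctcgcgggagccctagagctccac
In Cxcl9 the capitals mark the letters TATAAA, whose first base lies at -195, counted backwards from -1 next to the start. In Cxcl10 they mark a match to GAAANNGAAA, the interferon response element, at -213 and matches to the NF-κB site at -159 and -103. In Cxcl1 they mark a pair of overlapping matches to the NF-κB site on opposite strands at -71 and -70.

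Motif letters were searched in such windows for the 33 members that the RefSeq table holds, which have 40 windows, and in all 32851 windows of the table. The members named without a window are Ccl2, Ccl4, Ccl5, Ccl7, Ccl11, Ccl24, Cxcl16, Il15 and Il34. The NF-κB site, searched on both strands, was in the windows of 8 of the 33 members (Ccl9, Csf1, Cxcl1, Cxcl2, Cxcl10, Il6, Il16 and Il1r1) and in 3.9% of all windows. GAAANNGAAA on both strands was in 3 members (Ccl19, Cxcl10 and Cxcl14) and 2.98% of all windows. TTCNNNGAA, the palindrome bound by STAT factors, was in 2 (Ccl17 and Cxcl14) and 7.02%. CACCTG on both strands, which contains the E-box letters bound by ZEB2, was in 3 members (Il16, Il6ra and Lif) and 17.2% of all windows. TATAAA on the gene's strand was in 12 members and 7.59% of all windows. Counted by window, as these shares are, 8 of the 40 member windows had the NF-κB site and 3 had GAAANNGAAA. TTCNNNGAA was in 2, CACCTG in 3 and TATAAA in 13 of the 40. These matches describe letters only, and none of the 3 genes lower in libraries labelled Zeb2 cTg IR had CACCTG in the windows searched.

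Of the interleukin-1 family, Il33 changed in both comparisons and in opposite directions. IL-33 is an alarmin held in the nucleus of stromal, endothelial and epithelial cells and released on injury, and it signals through the receptor ST2, the product of Il1rl1. Il33 (chr19:29925114-29960718) was at 1.55, 1.35 and 1.51 CPM in WT sham and at 2.88, 4.92 and 10.03 CPM in WT IR. Every WT IR library was higher than every WT sham library, and the WT IR libraries were themselves widely spread. The level was 4.002 times that of WT sham (log2 fold change 2.00 ± 0.42, adjusted p = 0.013), and only without WT sham replicate 2 was the call lost (adjusted p = 0.0774).

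Among the Zeb2 hearts Il33 was at 3.34, 3.68 and 3.47 CPM in Zeb2 WT IR and at 1.09, 1.60 and 1.32 CPM in libraries labelled Zeb2 cTg IR. The groups lay apart and both were tight. The level was 0.384 times that of Zeb2 WT IR (log2 fold change -1.38 ± 0.21, adjusted p = 0.0121). The adjusted p was 0.0585 and 0.0606 without Zeb2 WT IR replicate 3 and without Zeb2 cTg IR replicate 3. The 2 tables were normalised separately, so the level in libraries labelled Zeb2 cTg IR and that in WT sham stand side by side without a test.

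The other members of the group were weak. Il18, an inflammasome product, had 4, 5 and 5 counts in WT sham and 13, 16 and 9 in WT IR, with no overlap in CPM and a log2 fold change of 1.06 ± 0.39 (adjusted p = 0.079). It reached the count filter only through the WT IR libraries, in which it was high. Its adjusted p and lack of overlap are therefore no evidence of a difference. In the Zeb2 table it had 1, 7 and 6 against 3, 5 and 3 counts and was not tested. Il1b, the other inflammasome product, had 18, 28 and 14 counts in WT sham and 6, 17 and 34 in WT IR (-0.38 ± 0.53, adjusted p = 0.647), then 3, 10 and 13 against 7, 10 and 18 counts in the second table. Tnf had 7, 11 and 8 counts in WT sham, 5, 19 and 2 in WT IR, 19, 10 and 10 in Zeb2 WT IR and 8, 9 and 22 in libraries labelled Zeb2 cTg IR. With all libraries it reached the count filter only in the second table (-0.10 ± 0.42, adjusted p = 0.902). No difference was detected for Il1b after IR or for Tnf in the second table, and both rested on few counts. Neither gene was tested in the other table.

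Il1r1 (chr1:40225080-40317257), the signalling receptor of IL-1, also changed in both comparisons. It was at 7.53, 7.51 and 7.80 CPM in WT sham and at 9.84, 16.7 and 20.1 CPM in WT IR, without overlap. It rose by a log2 fold change of 1.03 ± 0.22 (adjusted p = 0.0135). The adjusted p was 0.0501 to 0.0744 without any one of the 3 WT sham replicates or WT IR replicate 2. In the second table it was at 8.91, 8.86 and 9.96 CPM in Zeb2 WT IR and at 4.69, 6.18 and 6.26 CPM in libraries labelled Zeb2 cTg IR, again without overlap. The log2 fold change of -0.69 ± 0.16 was close to the threshold (adjusted p = 0.0484). It was lost in 5 of 6 fits without 1 library, all but that without Zeb2 cTg IR replicate 2 (adjusted p 0.0734 to 0.195), and in 4 of the 12 other alternatives, among them limma-voom, a GC correction and a filter of 10 counts in every library (0.0526 to 0.0726). Il1rl1, the ST2 receptor of IL-33, had estimates of 0.52 ± 0.28 after IR and -0.20 ± 0.35 in the second table (adjusted p = 0.212 and 0.75).

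**Figure D3:**
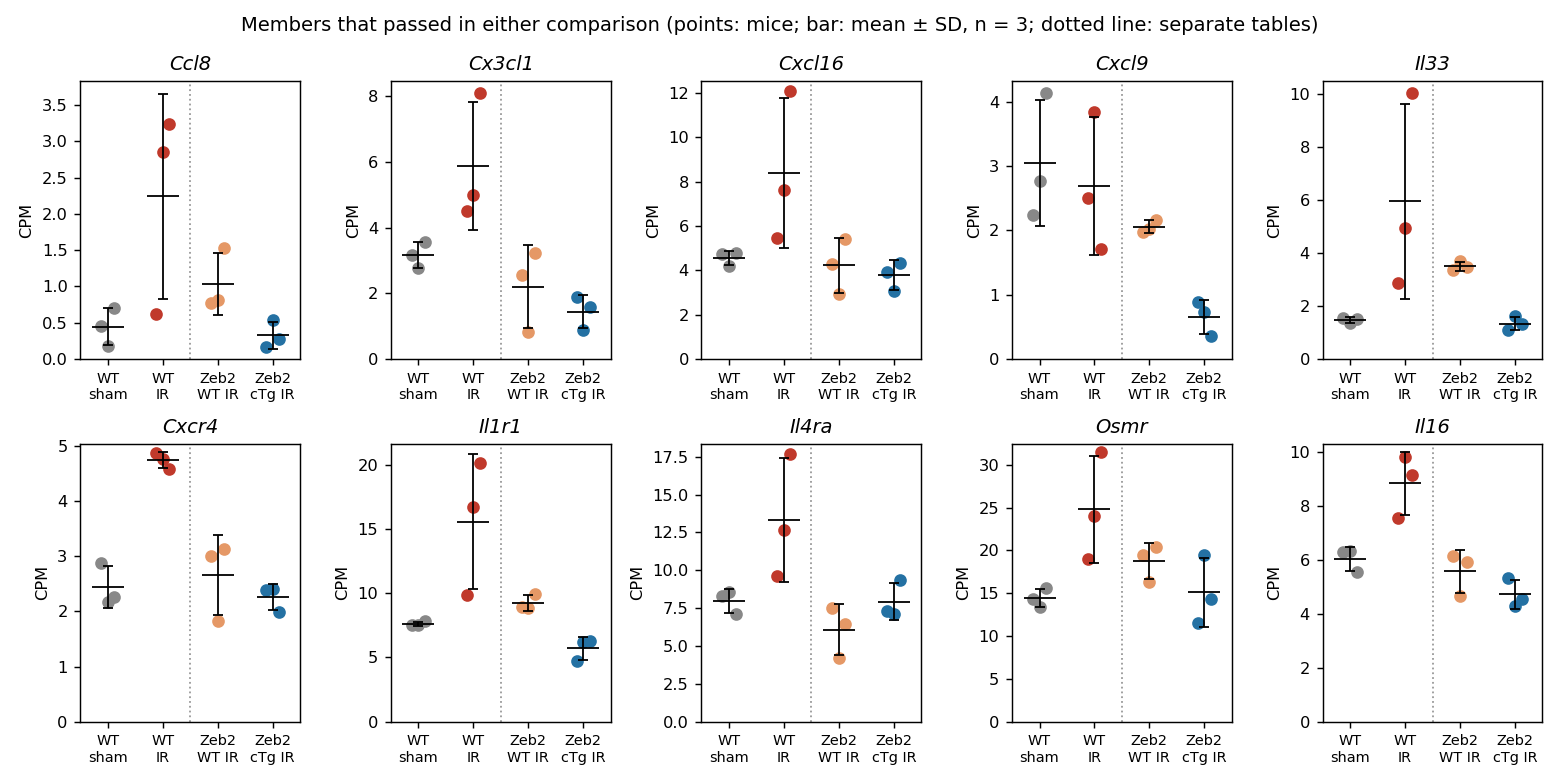
CPM per mouse (points) with mean ± SD (n = 3) of the 10 members that passed in either comparison, in the 4 groups. The dotted line separates the tables, which were normalised on their own. Il33 and Il1r1 passed in both comparisons, higher in WT IR and lower in libraries labelled Zeb2 cTg IR, and Ccl8 overlaps between WT sham and WT IR.

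The windows before the starts of Il33 and Il1r1 are shown because these were the 2 members called in both comparisons. Each has 2 RefSeq starts, and capitals mark TATAAA in Il33 and the NF-κB site in Il1r1.
Il33, first start (chr19:29924863-29925112, plus strand): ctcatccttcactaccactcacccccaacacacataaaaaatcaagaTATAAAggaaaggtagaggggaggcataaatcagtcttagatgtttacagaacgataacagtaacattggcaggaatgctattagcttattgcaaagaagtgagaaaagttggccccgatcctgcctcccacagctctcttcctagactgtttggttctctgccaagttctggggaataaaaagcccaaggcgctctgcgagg
Il33, second start (chr19:29945540-29945789, plus strand): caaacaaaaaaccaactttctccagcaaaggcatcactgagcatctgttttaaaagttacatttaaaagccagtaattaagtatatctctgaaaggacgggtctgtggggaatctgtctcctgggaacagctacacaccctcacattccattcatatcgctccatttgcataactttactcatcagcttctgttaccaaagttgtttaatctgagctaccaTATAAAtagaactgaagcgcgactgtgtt
Il1r1, first start (chr1:40224830-40225079, plus strand): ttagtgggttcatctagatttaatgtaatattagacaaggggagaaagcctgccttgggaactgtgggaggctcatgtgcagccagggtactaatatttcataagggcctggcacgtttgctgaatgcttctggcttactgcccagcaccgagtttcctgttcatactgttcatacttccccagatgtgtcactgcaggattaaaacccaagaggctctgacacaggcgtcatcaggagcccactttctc
Il1r1, second start (chr1:40266336-40266585, plus strand): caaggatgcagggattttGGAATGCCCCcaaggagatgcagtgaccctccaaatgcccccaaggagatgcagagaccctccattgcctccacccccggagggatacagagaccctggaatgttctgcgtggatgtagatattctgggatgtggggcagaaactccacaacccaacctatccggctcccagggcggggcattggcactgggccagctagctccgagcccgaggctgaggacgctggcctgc
TATAAA began at -203 before the first start of Il33 and at -29 before the second. The NF-κB site began at -232 before the second start of Il1r1, and no searched motif was in the window of its first start. Gene counts do not tell which start was used.

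Of the IL-6 family, the ligands were near or below the limit of the libraries and the shared receptor was abundant. Il6 had 2, 0 and 0 counts in WT sham and 9, 10 and 15 in WT IR, with every WT IR library above every WT sham library. It did not reach the count filter. Without a filter the adjusted p was 0.00143, which, as for Cxcl10, cannot be set beside the values of the main fit. Among the Zeb2 hearts Il6 had 3, 1 and 6 counts in Zeb2 WT IR against 1, 4 and 0 in libraries labelled Zeb2 cTg IR. Lif, leukaemia inhibitory factor, had 7, 6 and 4 counts in WT sham, 4, 7 and 9 in WT IR, 5, 5 and 6 in Zeb2 WT IR and 5, 4 and 11 in libraries labelled Zeb2 cTg IR.

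Il6st was at 112, 108 and 102 CPM in WT sham and 117, 132 and 148 CPM in WT IR, a small shift without overlap that missed the threshold (log2 fold change 0.30 ± 0.10, adjusted p = 0.0566). In the Zeb2 table it was at 120, 118 and 128 CPM in Zeb2 WT IR and 92.6, 94.5 and 97.9 CPM in libraries labelled Zeb2 cTg IR. These groups lay apart too, with a log2 fold change of -0.36 ± 0.11 (adjusted p = 0.0878). Osmr (chr15:6813577-6874969), which pairs with gp130 to bind oncostatin M, did pass after IR. It was at 14.4, 13.4 and 15.6 CPM in WT sham and at 19.0, 24.0 and 31.4 CPM in WT IR, without overlap (log2 fold change 0.78 ± 0.16, adjusted p = 0.0124). The call was lost only without WT sham replicate 2 (adjusted p = 0.0756). In the second table the groups overlapped (19.4, 16.4 and 20.4 against 11.5, 19.4 and 14.3 CPM; -0.31 ± 0.19, adjusted p = 0.338).

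Of the other receptor chains, Il6ra, which binds IL-6 itself, had log2 fold changes of 0.49 ± 0.17 after IR (adjusted p = 0.0709, no overlap) and 0.16 ± 0.23 in the second table. Il11ra1, the IL-11 receptor, had 0.07 ± 0.11 and 0.08 ± 0.18, and its estimates are uncertain because the near-identical Il11ra2 stood at 0 in every library and Ccl27a overlaps it on the other strand. Il4ra (chr7:125552120-125579474), shared by the IL-4 and IL-13 receptors, rose after IR from 8.28, 8.55 and 7.10 CPM in WT sham to 9.59, 12.6 and 17.7 CPM in WT IR. The groups did not overlap (log2 fold change 0.72 ± 0.20, adjusted p = 0.0304), and the adjusted p was 0.0832 to 0.103 without any one of the WT sham replicates or WT IR replicate 2. Among the Zeb2 hearts Il4ra was at 7.52, 4.21 and 6.46 CPM against 7.29, 7.14 and 9.38 CPM (0.39 ± 0.22, adjusted p = 0.307).

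Of the chemokine receptors, Cxcr4 (chr1:128588199-128592293), the receptor of CXCL12 on leukocytes and endothelial cells, had the smallest adjusted p of the members after IR. It was at 2.88, 2.18 and 2.27 CPM in WT sham and at 4.88, 4.76 and 4.59 CPM in WT IR. The groups lay far apart and the WT IR values were close together. The level was 1.94 times that of WT sham (log2 fold change 0.96 ± 0.14, adjusted p = 0.00447), and Cxcr4 passed in all 6 fits without 1 library and in all 12 other alternatives tried. In the Zeb2 table it was at 3.01, 1.82 and 3.13 CPM against 2.39, 2.41 and 1.99 CPM, with overlap (-0.24 ± 0.24, adjusted p = 0.57). Ackr3, the atypical receptor that takes up CXCL12, was at 20.6, 17.1 and 15.5 CPM in WT sham and 15.8, 14.8 and 14.6 CPM in WT IR (-0.24 ± 0.11, adjusted p = 0.133), and its estimate in the second table was 0.12 ± 0.15.

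Among the other cytokines, Il16 (chr7:83642825-83745726), whose product attracts CD4-bearing cells, rose after IR from 6.28, 6.32 and 5.53 CPM in WT sham to 7.53, 9.81 and 9.14 CPM in WT IR. The groups did not overlap and the change was modest (log2 fold change 0.54 ± 0.12, adjusted p = 0.0171). The adjusted p was 0.0528 to 0.0775 without any one of the WT sham replicates or WT IR replicate 2, and Il16 overlaps Stard5 on the other strand. In the second table its estimate was -0.24 ± 0.18. Il15, a survival factor of T and NK cells, was at 10.2, 13.0 and 14.9 CPM in WT sham and 10.47, 9.18 and 7.83 CPM in WT IR (-0.46 ± 0.15, adjusted p = 0.0565). Among the Zeb2 hearts it was at 8.18, 2.79 and 7.36 CPM against 15.4, 11.8 and 6.71 CPM, a wide spread in both groups (0.87 ± 0.39, adjusted p = 0.208).

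Csf1 and Il34 encode the ligands of CSF1R, the receptor on which macrophages depend. Csf1 had log2 fold changes of -0.05 ± 0.12 after IR and 0.46 ± 0.20 in the second table (adjusted p = 0.799 and 0.206). Il34 was at 0.492, 0.644 and 0.233 CPM in WT sham and 1.03, 1.08 and 0.708 CPM in WT IR, without overlap (0.96 ± 0.33, adjusted p = 0.0687), and had an estimate of 0.39 ± 0.34 in the second table. Antisense genes overlap Il34, so its counts may include theirs.

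**Figure D4:**
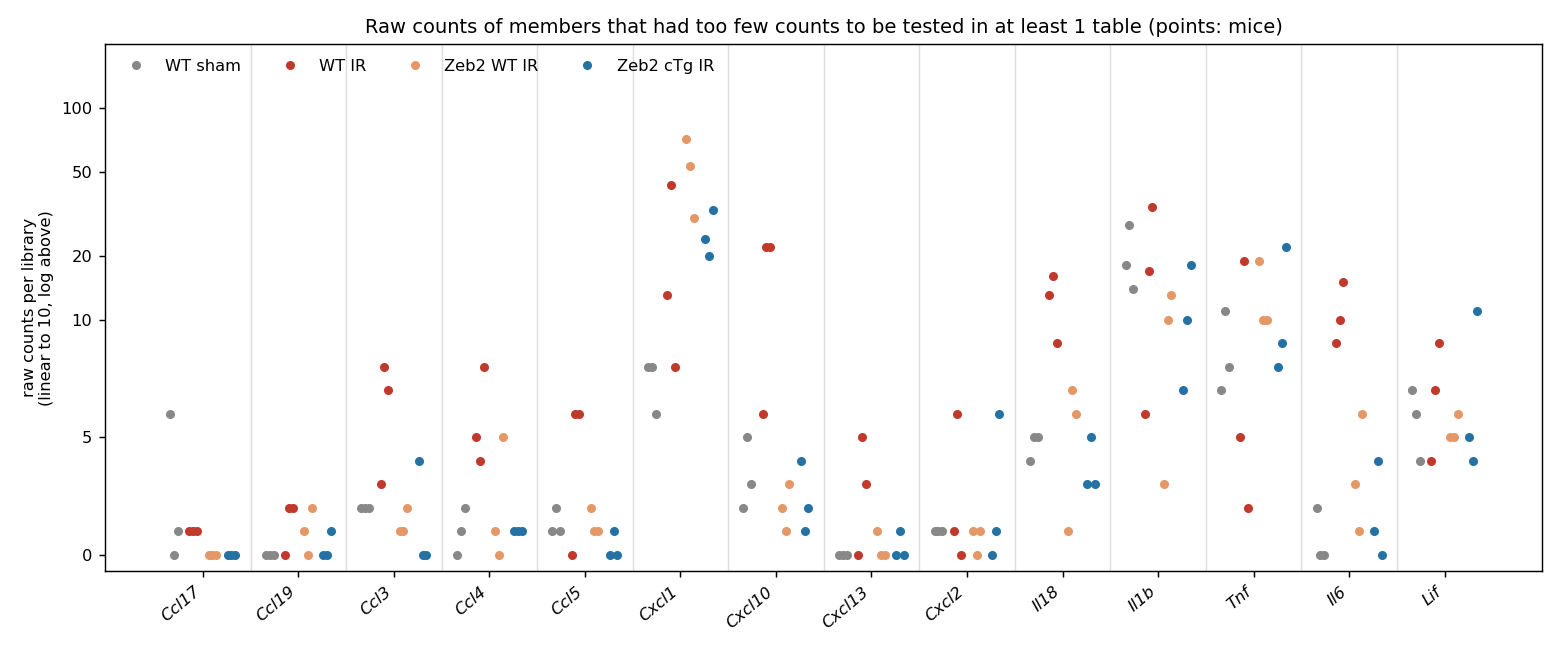
Raw counts per library (linear to 10, log above) of the 14 members that had too few counts to be tested in at least 1 table, coloured by group. Il6 and Cxcl10 lie higher in the 3 WT IR libraries than in the 3 WT sham libraries, whereas Ccl19 has 2 counts or fewer in every library.

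The receptors and partners of the 42 genes that are not among them were taken as a fixed list of 75. After IR, 57 were tested, 12 were higher and 1 lower, beside the 11.0% higher and 9.74% lower among all genes tested. Among the 12 were the chemokine receptors Ccr1, Ccr2, Cx3cr1 and Ackr4 and the cytokine receptor chains Il1rap, Il10ra, Il13ra1 and Csf1r. The chemokine Ccl21a and the signalling genes Socs3 and Irak3 were also among them. Ccr2, the monocyte receptor of CCL2 and CCL12, was at 2.57, 1.99 and 3.09 CPM in WT sham and 5.19, 11.9 and 14.8 CPM in WT IR (log2 fold change 2.09 ± 0.36, adjusted p = 0.00677). Ccl21a, a CCR7 ligand with near-identical copies that stood at 0 in every library, had a log2 fold change of 2.24 ± 0.41 (adjusted p = 0.00826). Cish, an inhibitor of STAT5 signalling, was the one that fell (-0.71 ± 0.13, adjusted p = 0.00797).

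Of the same 75 genes, 55 were tested in the Zeb2 table, 0 were higher and 1, Ccr2, was lower, beside 2.14% and 1.51% of all genes tested. At an unadjusted p under 0.05, 4 were higher and 7 lower, a count for which the share of all genes was not computed. Ccr2 was at 3.26, 4.37 and 8.596 CPM in Zeb2 WT IR and 2.18, 1.03 and 1.07 CPM in libraries labelled Zeb2 cTg IR (-1.95 ± 0.41, adjusted p = 0.0357). Of its ligands among the members, Ccl2, Ccl7 and Ccl12 were not called, as given above. The next smallest p-values belonged to Tnfsf10 (-0.63 ± 0.17, adjusted p = 0.0675) and Tnfaip3, an inhibitor of NF-κB signalling (-0.86 ± 0.27, adjusted p = 0.104). Il1rap, the partner chain of Il1r1, was 0.78 ± 0.19 on the log2 scale after IR (adjusted p = 0.0198) and -0.56 ± 0.18 in the second table (adjusted p = 0.108).

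In bulk tissue, fewer cells of a type and less RNA per cell cannot be told apart, and cell markers moved with several of these results. After IR, 8 of the 11 tested macrophage and monocyte markers were higher (12 listed), and their summed level was 150 to 167 CPM in WT sham and 220 to 427 CPM in WT IR. Of the 6 fibroblast markers 5 were higher, with sums of 339 to 518 CPM in WT sham and 942 to 2291 CPM in WT IR. Of the 12 cardiomyocyte markers 3 were lower (60240 to 66660 against 46890 to 60120 CPM). WT IR replicate 1, which had the lowest levels of Ccl8, Il33, Il1r1 and Osmr of its group, also had the lowest level of each of those 8 macrophage and 5 fibroblast markers. Of the 9 called members, 8 were lowest in that replicate within WT IR, whereas Cxcr4 was highest in it. The part of these cells in the results was not tested.

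Lymphocyte and granulocyte markers were near the floor. T cell markers summed to 0.583 to 0.873 CPM in WT sham and 0.844 to 1.88 CPM in WT IR, B cell markers to 0.640 to 0.920 and 0.812 to 1.87 CPM, and neutrophil markers to 1.10 to 3.61 and 1.38 to 2.50 CPM, with Ly6g at 0 in every library. None of these 3 lists had a called gene, but only 1 T cell, 1 B cell and 2 neutrophil markers had enough counts for a test. Of the 4 mast cell markers only 1, Cpa3, was tested, and it was called higher. Cpa3 reached the count filter only through the WT IR libraries, in which it was high, so that call is no evidence of a difference. The 6 endothelial markers held none called, and of the lymphatic markers Pdpn was higher. Wt1 of the mesothelial markers and Hba-a1 and Hba-a2 of the red cell markers were lower. Adipocyte and platelet markers held none called, with 0 and 3 markers tested, and Lep was at 0 in the first table.

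In the Zeb2 table the macrophage sums overlapped (172 to 238 CPM in Zeb2 WT IR, 172 to 209 CPM in libraries labelled Zeb2 cTg IR), and Cd163 alone was called, as higher. The fibroblast sums did not overlap (545 to 1083 against 349 to 424 CPM), and Col1a2 alone was called, as lower. The cardiomyocyte sums did not overlap either (59820 to 64850 against 66900 to 70560 CPM), and Tnnt2 and Mybpc3 were higher. T cell sums were 0.800 to 0.880 CPM and 0.503 to 0.674 CPM, and lymphatic sums were 86.3 to 87.4 CPM and 69.4 to 71.7 CPM. For each of these 4 lists the exact two-sided permutation p was 0.1, the smallest that 3 against 3 mice allow. The part of these cells in the values of Cxcl9, Il33 and Il1r1 was not tested. The lymphatic sum rested mostly on 1 gene in the first table, Prox1, at 76.87 to 78.52 CPM in WT sham where the sums were 96.15 to 97.67 CPM. In the Zeb2 table none of the 4 lymphatic markers was called, and the part of Prox1 in those sums is not given here. Sums of the neutrophil, B cell, mast cell, endothelial, mesothelial, adipocyte, red cell and platelet markers overlapped between the groups. None of their genes was called, but 0 of the B cell, mast cell and adipocyte markers and only 1 of the 6 neutrophil markers had enough counts for a test.

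**Figure D5:**
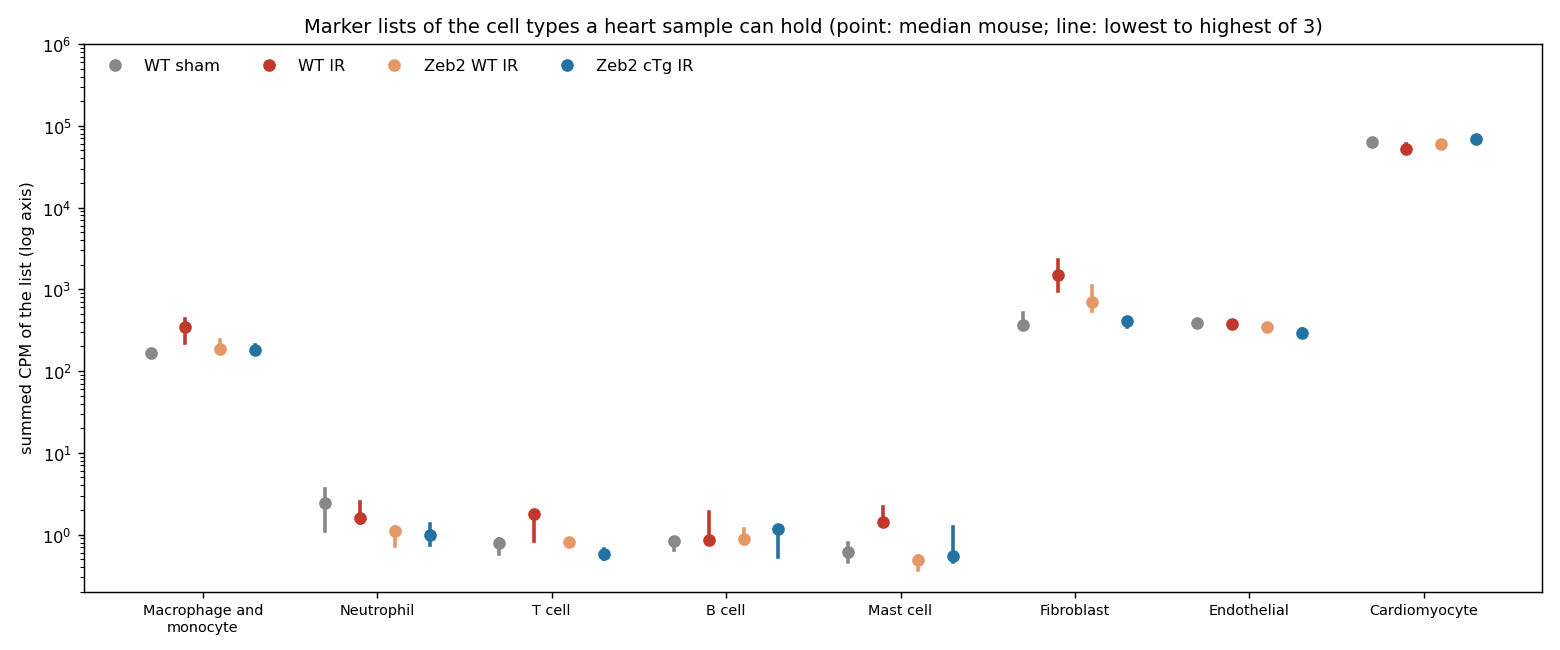
Summed CPM (log axis) of marker lists for 8 cell types in the 4 groups, as the median mouse (point) and the lowest to highest of 3 mice (line). Fibroblast sums are 942 to 2291 CPM in WT IR against 339 to 518 CPM in WT sham, and 349 to 424 CPM in libraries labelled Zeb2 cTg IR against 545 to 1083 CPM in Zeb2 WT IR.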

How the data were processed

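RNA-seq of 12 mouse heart libraries was deposited as raw counts per gene in 2 tables of 6 libraries, and all columns were used. According to the methods the authors made strand-specific single-end reads of 75 bases and counted them on GENCODE M4 genes with STAR. The submitters' processing notes name STAR 2.4.2a, HTSeq 0.6.1 and mm10. Whether counting used strand is not given in the sources used here.

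Each table was fitted on its own with edgeR 4.0.16 (TMM, filterByExpr with 10 counts in a library and 15 in all, quasi-likelihood test of group). P-values were adjusted over all genes tested by the Benjamini-Hochberg method (threshold 0.05). DESeq2 1.42.0 and limma 3.58.1 were alternatives. The GC correction used a loess fit of each library on the GC content of the exons. The scripts were tested on simulated data. Symbols, coordinates and exon lengths came from GENCODE M21 (GRCm38), which named 36345 of 38293 identifiers, and promoter windows from RefSeq (GRCm38.p6).

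The design text gives separate animals, so n is mice. No pair of libraries within a table agreed within sampling noise (chi-square per gene 7.42 or more). Named members were those with an adjusted p under 0.05, those at 10 counts or fewer, and the rest by role. Of the other pathway genes, the 3 with the smallest p in each comparison were named by rule. The other called pathway and marker genes and Il1rap were named after their values were seen. The members, gene lists and marker lists were chosen with earlier results of these data known. One pathway gene that enters the counts over its list is not reported here.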

Additional observations from a re-analysis of the deposited data

How the results depend on the processing

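Under the alternatives tried, no log2 fold change of a called member changed direction. Of the counts of members called, 9 higher and 0 lower after IR and 0 higher and 3 lower in libraries labelled Zeb2 cTg IR, the first moved to 16 with size factors from cardiomyocyte markers, to 17 without a count filter and to 16 at an adjusted p under 0.1. Lower after IR there was 1 gene without a filter, with the GC correction, with the GC correction and replicate block, with DESeq2 and at an adjusted p under 0.1. Among the Zeb2 hearts, 5 were lower without a filter, with DESeq2, with the replicate block and at an adjusted p under 0.1, and 1 (Il15) was higher without a filter. Leaving out 1 library gave 1 to 15 higher and 0 to 2 lower after IR, and 0 higher and 0 to 5 lower in the second table. Over all genes the same fits gave 226 to 2543 higher and 195 to 2437 lower after IR. In the second table they gave 50 to 1594 higher and 46 to 825 lower. With the replicate block 11 members were higher after IR. The labels give both groups the same replicate numbers, but the correlation of their deviations was over 0.1 in 0 of 3 pairs after IR and in 2 of 3 pairs in the second table (correlations -0.034, 0.012 and -0.015 after IR, and 0.134, 0.26 and -0.042 in the second table). Since not every pair exceeded 0.1, the block is an alternative only.

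Cardiomyocyte-marker size factors moved the median log2 fold change of all genes to 0.29 after IR and to -0.16 in the second table, where 4 members were lower. Over all genes the calls were then 2807 higher and 236 lower, against 1519 and 1340, and 171 higher and 654 lower, against 278 and 196. The GC correction gave 1175 higher and 1580 lower after IR. In the second table, all genes called came to 1164 higher and 649 lower with the replicate block and to 671 and 425 with DESeq2. Single calls after IR were lost by Ccl8 with limma-voom (adjusted p = 0.0936), by Cx3cl1 with all 12 libraries in 1 fit (0.126), and by Cxcl16 (0.0517 and 0.0674) and Il4ra (0.0505 and 0.0555) with either. The causes were not tested. Genes below about 1 CPM rested on too few counts for differences to be detectable at this depth unless they were large.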

Other observations

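The WT IR and Zeb2 WT IR hearts were both injured and both labelled wild-type, and their levels of some members are given here. Ccl11, an eotaxin, was at 0.149 to 0.476 CPM in WT IR and 0.933 to 2.23 CPM in Zeb2 WT IR, and Cxcl1 at 0.298 to 1.14 and 1.00 to 2.60 CPM. Cx3cl1 was at 4.50 to 8.09 CPM in WT IR and 0.809 to 3.23 CPM in Zeb2 WT IR, and Cxcr4 at 4.59 to 4.88 and 1.82 to 3.13 CPM. Il33 was at 2.88 to 10.03 and 3.34 to 3.68 CPM, and Il1b had 6 to 34 and 3 to 13 counts. The ranges of Ccl11, Cx3cl1 and Cxcr4 did not overlap, and those of Cxcl1, Il33 and Il1b did. Other members did not overlap either, among them Il4ra (9.59 to 17.7 and 4.21 to 7.52 CPM) and Il6ra (2.84 to 3.99 and 1.53 to 2.09 CPM). The share over all genes was not computed, so whether the separation is particular to the genes named is not known. The tables were normalised separately and may differ in other ways, so these levels are given side by side with no test.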
